A study of Homo sapiens with 4 samples.

Results

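Peaks from the pull-down with the even set of circ-ZNF609 probes were compared with peaks from the pull-down with LacZ probes. The pair of lists held 1224 of the 1766 peaks deposited for the series, 502 with even probes and 722 with LacZ probes. A peak here is a stretch of the genome, made of adjoining bins of 170 bases, in which a peak caller found more reads than its model of the library allowed. An even and a LacZ peak were matched where they shared 1 base or more, with strand ignored. Peaks were ranked within their own list by reads per bin and were given to genes by the gene spans annotated on GRCh38.

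All libraries came from the RD line, which was derived from an embryonal rhabdomyosarcoma, a soft-tissue tumour with features of developing skeletal muscle. The even probes were biotinylated antisense oligonucleotides against exon 2 of ZNF609. The LacZ probes were directed at a bacterial mRNA that human cells lack, and so measured the background of the procedure with those probes. The labels give the same cell line, culture medium and extraction for both groups, and no genetic change or drug, so the probe set is the labelled difference between them. Of the 4 samples of the series, another pull-down with odd probes against the same exon was used only as an extra readout, and the total lysate was not analysed here. Each probe set was 1 library of 1 cell line, so differences below lack a replicate check and were not tested between probe sets.

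Circular RNAs are made when the splicing machinery joins the end of an exon back to its own start, which leaves a closed ring without free ends that exonucleases can attack. The circular RNA of ZNF609 is formed from exon 2, an exon that the linear ZNF609 mRNA also carries, so probes against it can bind both forms. A hybridization pull-down recovers the RNA that the probes pair with, RNAs held to that RNA, and RNAs that stick to probes or beads by themselves. Control probes show RNAs that stick to beads or to the control probes. They do not show RNAs other than the target that bind to the even probes themselves.

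The sequences shown first are those where a peak and an annotated RNA feature can be seen base by base. All are from RefSeq on GRCh38.p14, written 5′ to 3′, with the bases that lie inside a peak in capitals. In UBTF, which encodes a transcription factor of ribosomal RNA genes, the even peak at chr17:44207141-44207820 (938.75 reads per bin, rank 42 of 502) ran 50 bases into the 69-base hairpin of MIR6782 on the minus strand. The LacZ peak in UBTF, at chr17:44207311-44207650 (202 reads per bin, rank 142 of 722), lay within the even peak and stopped short of the hairpin. The span of ATXN7L3-AS1 also covers this place. In MYH9, which encodes a nonmuscle myosin heavy chain, a LacZ peak at chr22:36286671-36287010 (247.5 reads per bin, rank 103) covered all 61 bases of the MIR6819 hairpin and had no even counterpart.
MIR6782: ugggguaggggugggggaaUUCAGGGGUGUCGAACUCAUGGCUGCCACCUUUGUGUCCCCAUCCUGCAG
MIR6819: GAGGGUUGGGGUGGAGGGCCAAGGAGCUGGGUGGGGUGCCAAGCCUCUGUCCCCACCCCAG

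In these peaks, reads of the hairpin and of the host RNA were not told apart. The next 3 sequences are the 30 bases upstream of an annotated gene start, chosen to show a start reached by an even peak alone, by both lists, and by a LacZ peak alone. EPHA7 encodes an ephrin receptor, and its single even peak at chr6:93419421-93419590 (615 reads per bin, rank 92) crossed the gene start and took in 31 bases before it. KANK2, a regulator of the cytoskeleton, had an identical even and LacZ peak at chr19:11197391-11197560 with 296 and 85 reads per bin. That peak crossed a start within the span of KANK2. ATP5ME encodes a subunit of ATP synthase, and its LacZ peak at chr4:673881-674390 (198 reads per bin, rank 150) took in 114 bases before the start.
EPHA7, chr6:93419560-93419589, minus strand: TGATATTATTGGAGTGTGGAGCAAGCGGCC
KANK2, chr19:11197546-11197575, minus strand: ccacctccgagggccGGGCGCCCAGGCTGC
ATP5ME, chr4:674277-674306, minus strand: TTGTGCGGCATCCTGCTCCGTCTGCAGGTT

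Peaks that reached a window from 250 bases before to 50 bases after an annotated start were few in both lists. They numbered 6 of 502 even peaks (1.20%, exact Clopper-Pearson 95% interval 0.440 to 2.58) and 19 of 722 LacZ peaks (2.63%, 1.59 to 4.08). These intervals, like the others given here, cover counting error only, and those for peaks treat peaks of the same gene as independent.

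ANP32B, GPI, DDX27 and HMGB2 were among the strongest genes found with even and not with LacZ probes, and ANP32B was far ahead of the rest. A small set led by PTMS, CREBBP and PRRC2C was found with both probe sets. NACC1, ARL6IP4 and CCDC50 were among the strongest genes found with LacZ and not with even probes. In all, 665 genes had a peak in either list. Of these, 219 genes (32.9%) had an even and no LacZ peak, 88 genes (13.2%) had both, and 358 genes (53.8%) had a LacZ and no even peak. Having no peak says that no bin of the gene passed in that list, not that the RNA was absent from the pull-down.

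Most peaks of either list had no counterpart in the other. Of the even peaks, 74 of 502 (14.7%, 11.8 to 18.1) shared a base with a LacZ peak, and of the LacZ peaks, 74 of 722 (10.2%, 8.13 to 12.7) shared a base with an even peak. The 74 pairs fell in 53 genes, apart from 1 pair outside annotated genes, and 43 pairs had the same start and end in both lists. The share of genes was larger than that of peaks, since 28.7% of the 307 even genes had a LacZ peak and 19.7% of the 446 LacZ genes had an even peak. In 35 of the 88 genes found with both probe sets the peaks lay at different places.

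Reads in peaks came to 482418 in the even list and 219401 in the LacZ list, over 137360 and 205870 bases. The weakest even peak had 108 reads per bin and the weakest LacZ peak 38, with medians of 293 and 115. These are sums over the listed peaks and not library totals, and reads per bin are not scaled to depth. Reads per bin of the 2 lists are therefore printed side by side as deposited, and they do not compare recovery between the pull-downs. A further limit concerns the last column of the lists, which holds the same fixed value of 0.01 in some bins. Peaks with such a bin made up 57 of 502 even and 169 of 722 LacZ peaks, and genes that rest on them are marked below.

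**Figure D1:**
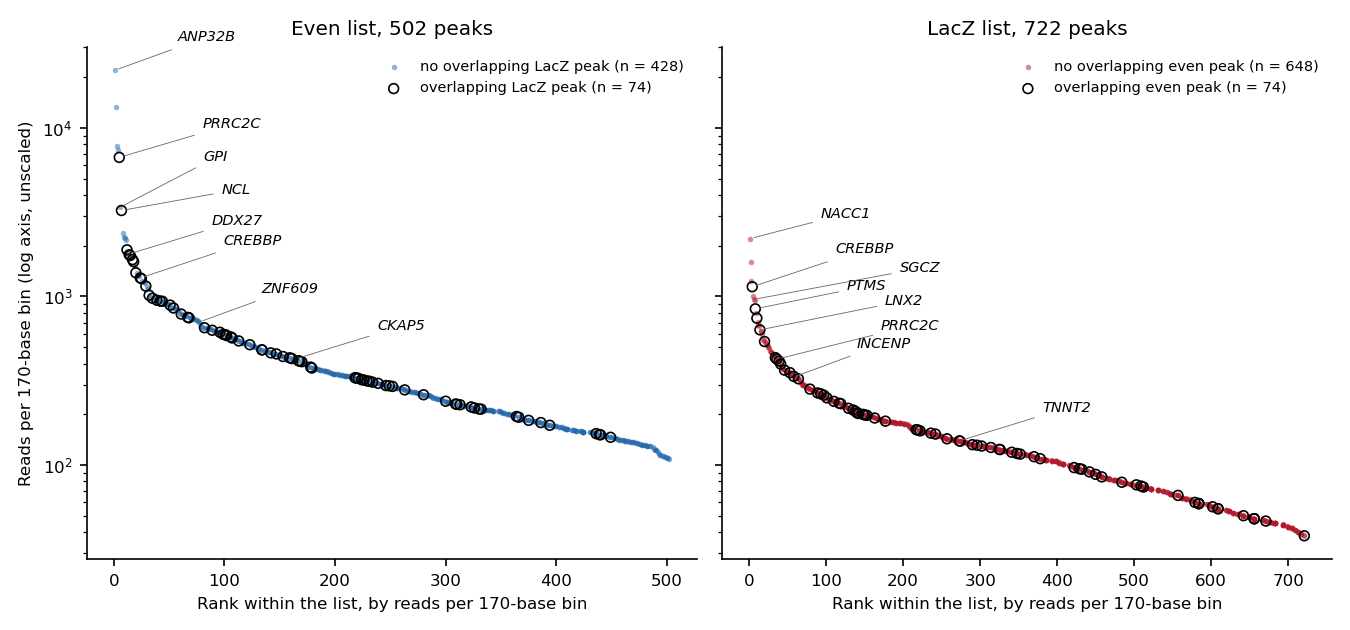
Reads per 170-base bin (log axis, unscaled) of each peak against its rank in the even list (left, 502 peaks) and in the LacZ list (right, 722 peaks). Black circles mark the 74 peaks of each list that overlap a peak of the other; the first 4 even peaks, all in ANP32B, carry no circle.

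The target of the probes, ZNF609 (gene ID 23060, chr15:64459578-64686068), had 1 even peak and 0 LacZ peaks. The even peak, at chr15:64499361-64500040, had 704 reads per bin, rank 77 of 502 and 0.584% of the reads in even peaks. One of its bins carries the fixed value, and without peaks of that kind ZNF609 had no even peak. Of the 518 annotated genes named ZNF, 6 had a peak, beside 665 of all 59661 annotated genes. These 6 were ZNF609 and ZNF282 with even probes and ZNF618, ZNF629, ZNF692 and ZNF830 with LacZ probes. CKAP5 (gene ID 9793, chr11:46743048-46846280) encodes a microtubule polymerase and is the gene named in the title of the series. It had 2 even peaks of 1 bin each, with 423 reads per bin at rank 163 and 376 at rank 179, and 0 LacZ peaks. Both genes thus belonged to the even set without LacZ, below the strongest peaks of the list, and an odd peak lay at each of these 3 places.

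ANP32B (gene ID 10541, chr9:97983341-98015943) encodes an acidic leucine-rich nuclear phosphoprotein that binds histones. Its 6 even peaks held the first 4 ranks, with 21973, 13307, 7793 and 7375 reads per bin, and ranks 160 and 192 with 431 and 360. LacZ probes gave 0 peaks there. ANP32B took 18.3% of all reads in even peaks, so shares of even reads are also given without it below. The deposited p-value did not follow the reads per bin, with 0.00181 at the peak of rank 1 and 3.50e-15 at that of rank 4. Odd peaks lay at 2 of the 6 places. RefSeq lists 3 pseudogenes named after ANP32B, and the treatment of reads that fit several places was not given in the sources used here.

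Related genes of acidic and high-mobility-group proteins, which bind histones or bend DNA, were also found with even probes. HMGB2, a DNA-bending protein, had even peaks of 1704 and 947 reads per bin at ranks 16 and 40. ANP32A, a close relative of ANP32B, had 3 peaks of 958.5, 447 and 374 reads per bin, and ANP32E, a chaperone of a histone variant, had 2 peaks of 556.5 and 465. None of these genes had a LacZ peak. The wider list of acidic and high-mobility-group nuclear proteins had 29 annotated members, of which 13 had a peak. They split into 8 even without LacZ, 2 in both (PTMS and NCL) and 3 LacZ without even (PTMA, SSRP1 and HDGFL2), or 61.5% even without LacZ beside 32.9% of all genes with a peak. The best even peak of these genes had a median rank of 74, beside 249 over all even genes. The list was drawn up with earlier results of these data known, so its share and median rank depend on that choice.

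GPI, a glycolytic enzyme, came next after ANP32B among genes without a LacZ peak. Its 3 even peaks had 3387, 2371 and 2228.5 reads per bin at ranks 6, 8 and 10, all within chr19:34366181-34368730. No odd peak overlapped any of them. Of the 17 glycolysis genes on the list, TPI1 and ENO1 had LacZ and no even peaks, and the rest apart from GPI had neither. RTL9, a gene derived from a retrotransposon, had a peak of 2149.33 reads per bin at rank 11, all of whose 3 bins carry the fixed value and which also lies in the span of AMMECR1. FGFRL1, a decoy receptor of fibroblast growth factors, had 1 peak of 1332.67 reads per bin at rank 22, with no odd peak there. EIF3J, a subunit of translation initiation factor 3, had 4 peaks of 1313.5, 1217, 947 and 132 reads per bin. MYPN, NOS1AP and ZNF282 completed the leading genes at ranks 26, 43 and 46, and the peaks of all 3 rest on bins with the fixed value.

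RNA helicases of the DEAD and DEAH families unwind RNA during splicing and ribosome assembly. Of 9 with a peak, 5 were found with even and not LacZ probes, 2 with both and 2 with LacZ alone. Over all genes with a peak, 32.9% were even without LacZ, 13.2% in both and 53.8% LacZ without even. DDX27, which acts in ribosome assembly, had 5 even peaks of 1779, 1145, 542, 330 and 139 reads per bin, and odd peaks lay at 2 of them. DHX38, a splicing helicase, had 2 peaks of 778.5 and 770.5. DDX24 and DDX54 had LacZ peaks of 61.7 and 95 reads per bin and no even peak.

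The list drawn up for factors that build ribosomes in the nucleolus had 16 genes with a peak. Of these, 8 were even without LacZ, 2 were in both and 6 were LacZ without even, beside 32.9%, 13.2% and 53.8% of all genes with a peak. PELP1, part of a complex that processes ribosomal RNA, had 957 reads per bin at rank 38 and NOLC1, a nucleolar chaperone, 874.5 at rank 52. KNOP1 had 3 even peaks, and PES1, WDR43 and MDN1 had 2 each. NOP2, NOP56, RRP1, RRBP1, TCOF1 and TSR2 made up the LacZ side, with at most 119 reads per bin. RRBP1 is a ribosome-binding protein of the endoplasmic reticulum and not a nucleolar factor, so the counts depend on how the list was drawn up. RRP12 was found with both, with 5 even peaks of 197 to 315 reads per bin and 1 LacZ peak of 57.5, but none of them overlapped. The nearest pair in RRP12 was 170 bases apart.

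Splicing genes were spread over the 3 sets. For serine and arginine rich proteins and their partners, 8 of 15 genes with a peak were even without LacZ, 2 were in both and 5 were LacZ without even. The shares over all genes with a peak were 32.9%, 13.2% and 53.8%. SRRM1, a splicing coactivator, had even peaks of 562.5 and 515 reads per bin, both at places of odd peaks. SRRT had 1 LacZ peak of 297 reads per bin and SRSF4 had 2 LacZ peaks of 198 and 105. Core spliceosome and heterogeneous nuclear ribonucleoprotein genes split equally, with 7 of 17 in each of the exclusive sets and 3 in both, beside the same shares. HNRNPC, a nuclear RNA-binding protein, had 2 even peaks of 505.5 and 318. XAB2, HNRNPM and SF3A2 were found with LacZ probes, at 549.5, 232 and 255.5 reads per bin for their best peaks, with XAB2 and SF3A2 on bins with the fixed value.

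Genes with a peak on the list of nonsense-mediated and other mRNA decay were few. Of these, 3 of 4 were even without LacZ, beside 32.9% of all genes with a peak. UPF3B, which links spliced mRNAs to nonsense-mediated decay, had 3 peaks of 691, 614 and 459 reads per bin. STAU1, a double-stranded RNA binding protein, had 3 peaks of 651, 526 and 483.5. UPF2 had 1 peak of 210 reads per bin. RBM8A, a core protein of the exon junction complex, had a LacZ peak of 82 reads per bin and no even peak. In the ubiquitin ligase and proteasome list 4 of 6 genes were even without LacZ (HUWE1, RNF20, PSMD1 and OS9), again beside 32.9%. Their best peaks had 151 to 336 reads per bin. RNF40 and PSMD2 were LacZ without even, and the share depends on how the list was drawn up. RPTOR, the mTORC1 scaffold, had 3 even peaks of 904, 623 and 187 reads per bin and no LacZ peak.

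**Figure D2:**
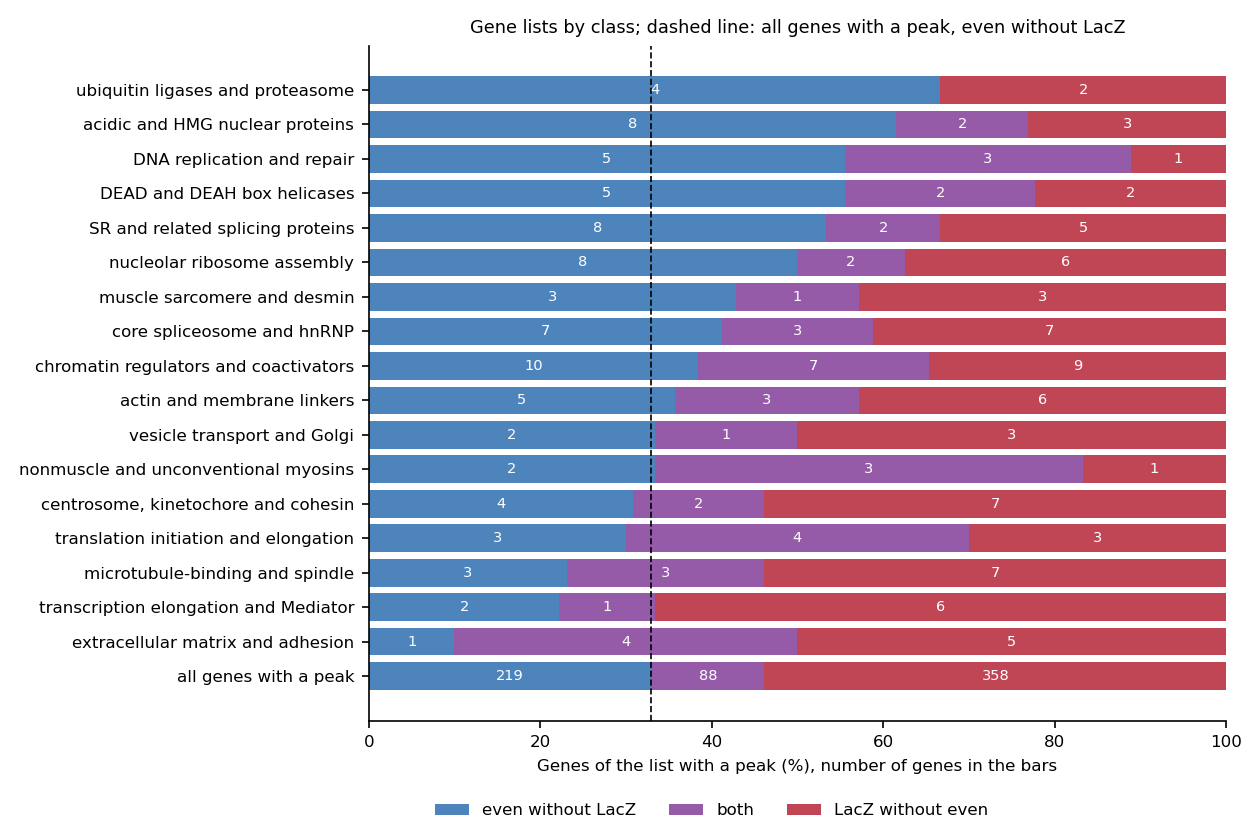
Share of the genes with a peak in each functional list that were found with even and not LacZ probes (blue), with both (purple) and with LacZ and not even probes (red), for lists with 6 or more such genes; the numbers in the bars are genes and the dashed line is the 32.9% of all 665 genes. Acidic and high-mobility-group proteins lie at 61.5% and extracellular matrix genes, a list without COL2A1, at 10.0%. The lists were drawn up with earlier results of these data known.

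Several genes were covered by many even peaks and no LacZ peak. FAM133B had 7 even peaks of 158 to 343 reads per bin, RDX, which links actin to the membrane, had 5 peaks of 210 to 344, and KTN1, a receptor for the motor protein kinesin, had 4 peaks of 115 to 252. ZFP91 had 4 peaks of 167 to 654, all of which also lie in the span of the readthrough gene ZFP91-CNTF. Most genes of this set rested on less, since 147 of the 219 had 1 peak, 51 had 2, 13 had 3 and 8 had 4 or more. Pseudogenes named after the parent gene are annotated for RDX (3), EIF3J (3), HMGB2 (1), ANP32A (1) and ZFP91 (1). They are also annotated for PRRC2C (1), ANKRD11 (2) and TOP1 (2), which had peaks in both lists.

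Matched peaks included some of the strongest of both lists. PTMS, which encodes the acidic nuclear protein parathymosin, had the same 1-bin peak at chr12:6766681-6766850 in both lists, with 1750 reads per bin at even rank 15 and 844 at LacZ rank 8. CREBBP, a histone acetyltransferase, had an identical 2-bin peak at chr16:3849311-3849650, with 1287.5 reads per bin at even rank 24 and 1142 at LacZ rank 4, on bins with the fixed value. Its other 2 even peaks, of 482 reads per bin each, also met LacZ peaks, of 231 and 217, and 1 LacZ peak of CREBBP stood alone. PRRC2C, a protein of stress granules, had even and LacZ peaks sharing 340 bases, with 6685.33 reads per bin at even rank 5 and 424.5 at LacZ rank 36. GPATCH4, LNX2, CHAF1A, RBM25 and ANKRD11 followed, and an odd peak lay at every matched place of these 8 genes.

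TNNT2 encodes cardiac troponin T, which is also made in embryonic skeletal muscle. Its 5 even peaks, of 1276, 936, 786, 575 and 381 reads per bin, had exactly the starts and ends of its 5 LacZ peaks. The LacZ values at the same places were 139, 75, 127, 79 and 48 reads per bin, so the strongest place was the same in both lists and the order below it differed. Odd peaks lay at all 5 places. Other muscle genes did not show this. DES, the muscle intermediate filament, had 2 even peaks of 578 and 266 reads per bin, TNNT1 had 1 peak of 345 and ACTC1 1 peak of 279, with 0 LacZ peaks. TPM1 and TPM2, which encode tropomyosins, had LacZ peaks alone, the highest with 287 reads per bin. CDH15, a cadherin of muscle precursors, had overlapping peaks of 221 and 94.3 reads per bin.

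As a check of the labelled cell type, 5 of 17 markers of rhabdomyosarcoma and muscle had a peak in either list (DES, TNNT1, TNNT2, ACTC1 and CDH15). The defining regulators MYOD1 and MYOG had none. None of the 10 blood, immune and epithelial markers had a peak. Over all annotated genes of any kind 665 of 59661 had a peak, so the lack of a peak in these 10 cannot check the cell type. Peak lists from a pull-down do not give expression levels, so the missing regulators are reported as not detected and no more.

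**Figure D3:**
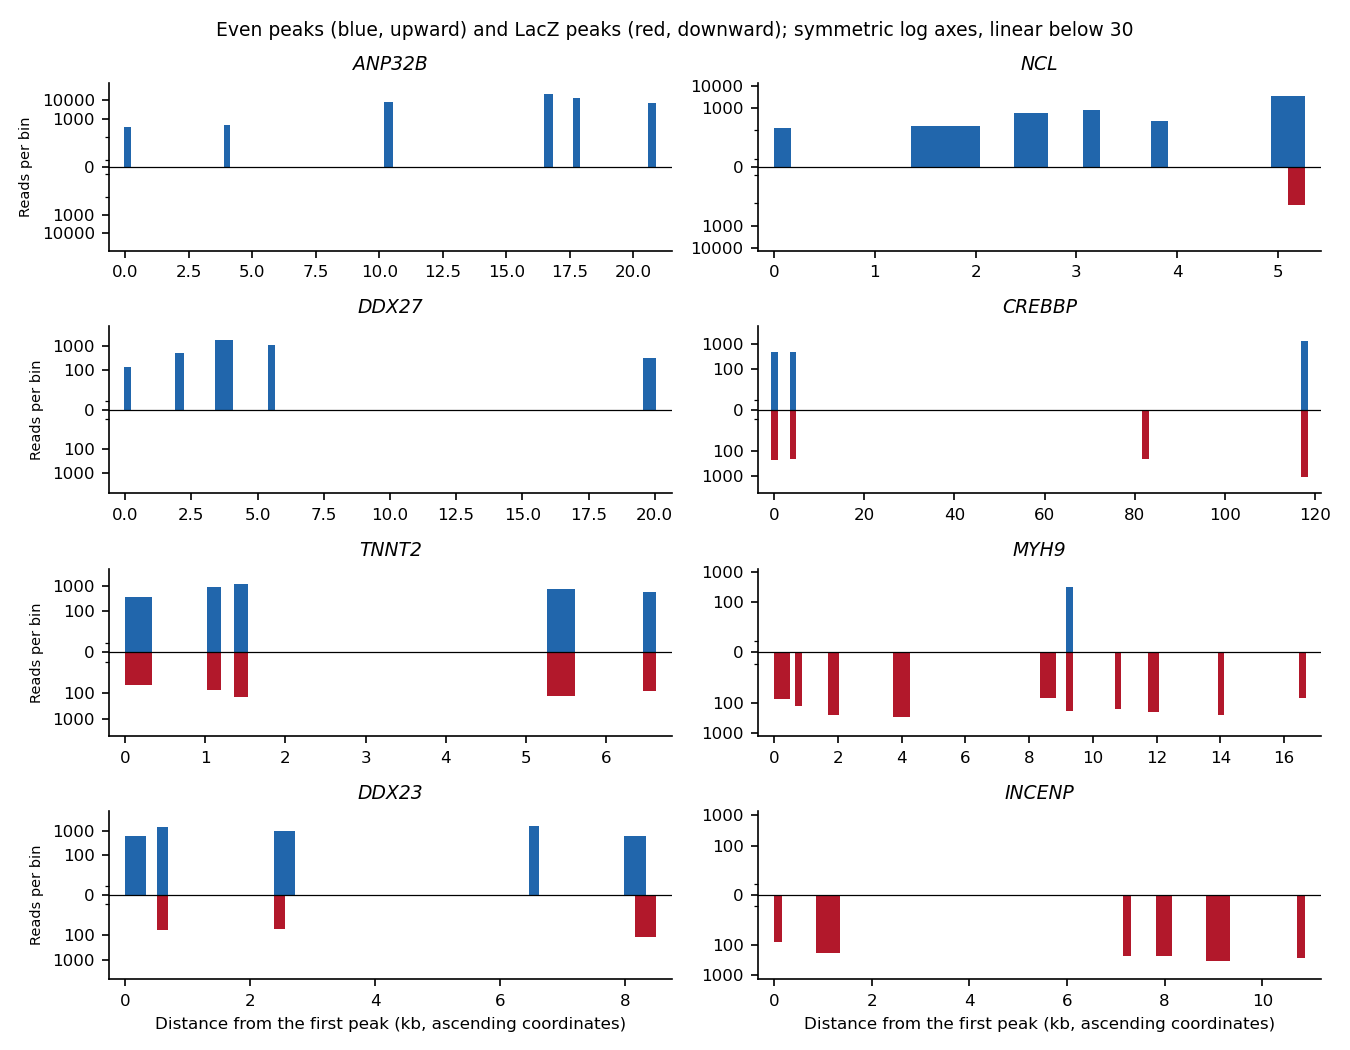
Even peaks (blue, upward) and LacZ peaks (red, downward) along 8 genes, as reads per bin on a symmetric log axis against distance in kb from the first peak; narrow peaks are drawn wider than their true width so that they can be seen. The 5 peaks of TNNT2 fall on the same places in both lists, while ANP32B and DDX27 have even peaks alone and INCENP has LacZ peaks alone.

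NCL, the nucleolar protein nucleolin, had 6 even peaks and 1 LacZ peak. The highest even peak had 3235.5 reads per bin at rank 7, and the LacZ peak within it had 112 at rank 370. The other 5 even peaks of NCL, of 843 to 132 reads per bin, had no LacZ counterpart. The small nucleolar RNA SNORD82 lies under NCL peaks, and 2 pseudogenes are named after NCL. DDX23, a splicing helicase, had 5 even peaks of 581 to 1516 reads per bin, and 3 of them met LacZ peaks of 116, 60 and 55. MYH9 was the reverse case, with 1 even peak of 314 reads per bin and 10 LacZ peaks of 70 to 294. The even peak of MYH9 was identical to a LacZ peak of 182 reads per bin. With the deposited p-value limited to 0.001, TNNT2, NCL, DDX23 and CHAF1A had even peaks alone, and PTMS and MYH9 had LacZ peaks alone. At that limit FGFRL1, SMARCA4, MYBL2, MYOF, MAP1A, COL4A1 and RRP12 had no peak in either list.

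Among the 35 genes with even and LacZ peaks at different places, MAP1B, a microtubule-associated protein, had even peaks of 2243 and 803.5 reads per bin at ranks 9 and 59 and a LacZ peak of 187 elsewhere. TOP1, a DNA topoisomerase, had 4 even peaks of 231.5 to 768 and 2 LacZ peaks of 77 and 62. EIF5B, a translation initiation factor, had 3 even peaks, the highest with 995 reads per bin, and a LacZ peak of 123.5. COL4A1, a basement membrane collagen, had 4 even peaks of 146 to 272 and 3 LacZ peaks of 77 to 87. The LacZ peaks of TOP1, COL4A1 and RRP12 were all weaker than the weakest even peak, so with both lists limited to 108 reads per bin these genes had even peaks alone. MAP1A lay between these cases, with 1 matched pair, a further even peak of 989 reads per bin and 3 further LacZ peaks of 438, 362 and 49. In translation initiation and elongation, 4 of 10 genes with a peak were in both lists (EIF2S2, EIF3A, EIF5B and ABCF1), beside 13.2% of all genes.

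Ranks of matched peaks in the lists were related only loosely. Across the 74 pairs, Spearman's rho of reads per bin was 0.353, as a description of peaks that share a place and a gene. In 18 pairs both peaks were in the strongest 25% of their lists, in 13 only the even peak was, in 13 only the LacZ peak was, and in 30 neither was. SREK1, a splicing protein, had even rank 12 with 1891.33 reads per bin and LacZ rank 609 with 55. AHNAK2 had even rank 67 and LacZ rank 671. ENAH, a regulator of actin filaments, went the other way, with LacZ rank 10 at 743 reads per bin and even rank 147 at 456. SLC2A11, a sugar transporter, had LacZ rank 64 and even rank 386.

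**Figure D4:**
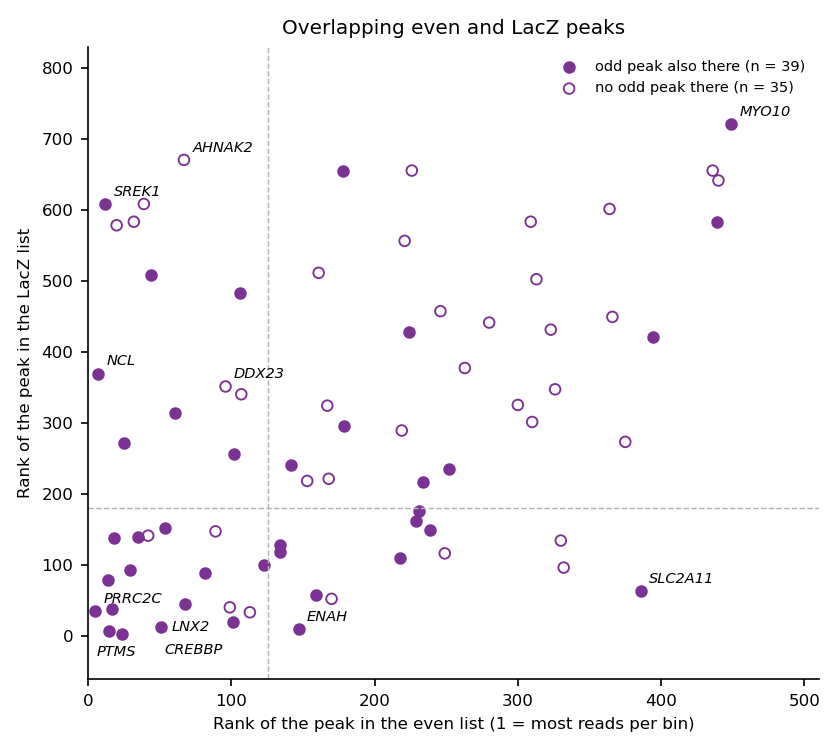
Rank in the even list against rank in the LacZ list for the 74 overlapping pairs, where rank 1 has the most reads per bin and dashed lines mark the strongest 25% of each list. Filled points have an odd peak at the even peak (39 pairs) and open points do not (35 pairs); PTMS, CREBBP and LNX2 lie at the strong corner and SREK1 and NCL are strong in the even list alone.

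The share of even peaks with a LacZ counterpart differed with peak strength. It was 24.8% (31 of 125, 17.5 to 33.3) for the strongest even peaks and 18.3% (23 of 126, 11.9 to 26.1) for the next. Among weaker peaks it was 10.4% (13 of 125, 5.65 to 17.1), and 5.56% (7 of 126, 2.26 to 11.1) for the weakest. Neighbouring intervals overlapped, and those of the strongest and the weakest did not. PRRC2C and NCL were the only matched peaks among the first 10 even peaks, and SREK1, CHAF1A, PTMS, GPATCH4, PDCD11 and DDX23 brought the count to 8 of the first 20. In the LacZ list, the strongest 180 peaks overlapped an even peak in 31 cases (17.2%, 12.01 to 23.5), and the weakest 181 in 14 (7.73%, 4.29 to 12.6). Of the first 10 LacZ peaks, CREBBP, PTMS and ENAH matched an even peak.

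Few unmatched even peaks lay just beside a LacZ peak. The even peak of RILPL1, with 271 reads per bin, touched a LacZ peak of 76 without sharing a base. Those of DDX23, MYO10 and RRP12 were 170 bases away from one, and 14 even peaks in all were within 1000 bases. Peaks that missed the 1-base rule narrowly were therefore 4 of 428 at a distance of 200 bases.

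The odd list, which played no part in the matching, was read against even peaks with and without a LacZ counterpart. An odd peak lay at 39 of 74 even peaks with a LacZ peak (52.7%, 40.7 to 64.4) and at 54 of 428 without (12.6%, 9.62 to 16.1). These intervals did not overlap, but they treat peaks as independent. The 74 peaks lay in 53 genes, apart from 1 outside genes, and genes such as TNNT2, CREBBP and RBM25 gave several, so the intervals do not test a difference. Peak strength also differed, with a median of 430.25 reads per bin with and 271.5 without a LacZ peak. Among the 125 strongest even peaks the shares were 67.7% (21 of 31, 48.6 to 83.3) and 19.1% (18 of 94, 11.8 to 28.6). For 1-bin peaks alone they were 46.2% (12 of 26, 26.6 to 66.6) and 12.2% (28 of 230, 8.24 to 17.1). Among even peaks of 184 to 292.5 reads per bin the order was turned, at 7.69% (1 of 13, 0.195 to 36.0) and 11.6% (13 of 112, 6.33 to 19.03). CREBBP, CHAF1A, RBM25, ANKRD11 and TNNT2 had several even peaks, and each of those peaks met both a LacZ and an odd peak. EIF3A, a subunit of translation initiation factor 3, had 2 such peaks, and its other even peak, of 169 reads per bin, met an odd peak alone. HMGB2, DDX27, DES, SRRM1, PES1, MDN1, RAD21 and CKAP5 were among genes with even and odd peaks at the same place and no LacZ peak.

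By genes the same readout gave 44 of 88 genes in both lists with an odd peak anywhere in the gene (50%, 39.1 to 60.9). It gave 43 of 219 even without LacZ (19.6%, 14.6 to 25.5) and 56 of 358 LacZ without even (15.6%, 12.04 to 19.8). The last 2 intervals overlapped, and the first stood apart from both. Peak number also differed, with 1 peak in 147 of the 219 genes even without LacZ and in 264 of the 358 LacZ without even. Genes in both lists had a peak in each, so the intervals do not test a difference. A narrower measure is an odd peak at an even peak of the gene, and it is not the one counted here. By it, HSP90AA1, PARP1 and MAP1A were among genes in both lists that had none. NASP, SFPQ and CALD1 were among those even without LacZ that had none.

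**Figure D5:**
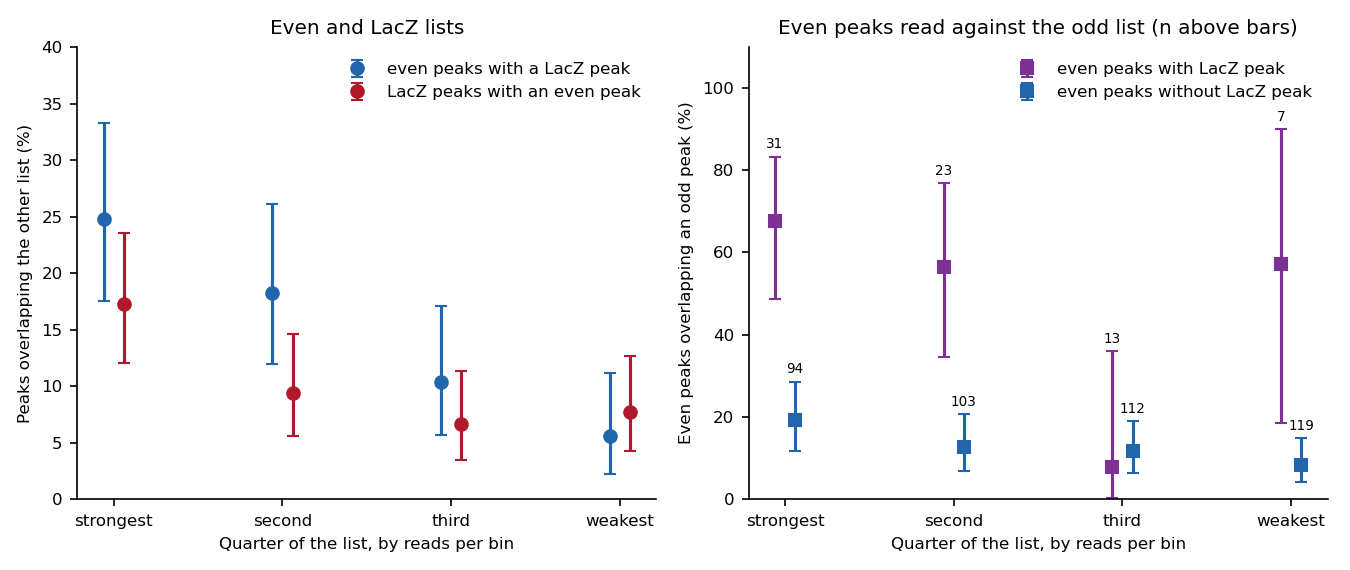
Left, the share of even peaks overlapping a LacZ peak (blue) and of LacZ peaks overlapping an even peak (red) in 4 groups by reads per bin; right, the share of even peaks overlapping an odd peak, with (purple) and without (blue) a LacZ peak, with the number of peaks above each bar. Bars are exact Clopper-Pearson 95% intervals; the even share falls from 24.8% in the strongest group to 5.56% in the weakest.

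Genes found with LacZ and not even probes were led by NACC1, a transcriptional regulator with a BTB domain. Its 2 LacZ peaks had 2203.33 and 1226.5 reads per bin at ranks 1 and 3, and it held 4.13% of the reads in LacZ peaks. The peak at rank 3 includes 1 bin with the fixed value. CCDC50, an effector of growth factor signalling, had 3 peaks of 709, 624 and 597 reads per bin at ranks 11, 15 and 17, none with a fixed value. ARL6IP4 had 1 peak of 952 at rank 7, and TRAF3IP1, a protein of cilia, had 1 peak of 539 at rank 21 at the place of an odd peak. SGCZ, PDE4B, PELI1, MYOF and the long noncoding RNA LOC105373963 had 1 peak each at ranks 6 to 18, and all 5 peaks rest on bins with the fixed value. DOCK1 had 5 LacZ peaks of 107 to 516.5 reads per bin, all of this kind, and 3 also lay in LOC105378551.

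INCENP, a scaffold of the chromosomal passenger complex in mitosis, had 6 LacZ peaks of 83 to 334 reads per bin, and odd peaks lay at 3 of them. IQCE had 6 peaks of 78.5 to 197 and SMARCA4, the motor of a chromatin remodelling complex, had 5 peaks of 48 to 263. MYBL2, MYO18A and PRKCSH had 4 LacZ peaks each. In the microtubule and spindle list 7 of 13 genes were LacZ without even (53.8%, as over all genes), 3 were even without LacZ (CKAP5, STMN1 and MAP7D3) and 3 were in both. MAP7D1 had the highest LacZ peak of that list's LacZ set, at 425 reads per bin. For centrosome, kinetochore and cohesin genes the counts were 7 LacZ without even, 4 even without LacZ and 2 in both, beside 53.8%, 32.9% and 13.2% of all genes. RAD21, a cohesin subunit, had 2 even peaks of 722 and 648.5 reads per bin, and SMC1A, another, had 2 LacZ peaks of 134 and 73.

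Of 10 extracellular matrix and adhesion genes with a peak, 1 was even without LacZ (PLXNA1, 10.0% beside 32.9% of all genes), 4 were in both and 5 were LacZ without even. This list does not hold COL2A1, a cartilage collagen with even peaks of 170 and 160 reads per bin and no LacZ peak, so its low share depends on how the list was drawn up. Of the 5 collagen genes with a peak, 1 was even without LacZ (COL2A1, 20%), 3 were in both and COL4A2 had LacZ peaks alone. FN1, the gene of fibronectin, had a LacZ peak of 248 reads per bin on a bin with the fixed value, COL4A2 had 2 peaks of 201 and 195, and LAMB1 had 1 peak of 43. LAMC1, a laminin chain, had LacZ peaks of 268, 235 and 90 and an even peak of 161 elsewhere. On the transcription elongation and Mediator list, 6 of 9 genes with a peak were LacZ without even, beside 53.8% of all genes. Among the 6 were NELFA with 3 peaks of 372, 354 and 275 reads per bin and POLR2A with 1 peak of 139.5. They also include the initiation factor genes TAF2 and GTF3C1, and TCOF1 of the nucleolar list, and none of the 9 is a Mediator subunit. TCEAL9 is on the list and TCEAL4, with an even peak of 414 reads per bin, is not, so this share too depends on how the list was drawn up. NELFB, of the same complex as NELFA, had 1 even peak of 408 and no LacZ peak. Chromatin regulators with a peak numbered 26, of which 10 were even without LacZ, 7 were in both and 9 were LacZ without even, beside 32.9%, 13.2% and 53.8% of all genes. Of 102 ribosomal protein genes and 74 histone genes, 1 each had a peak, RPL7 and H1-1, both with LacZ probes alone. The 37 genes of the nuclear pore list and the listed structural noncoding RNAs had none. Over all annotated genes, 665 of 59661 had a peak.

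The actin and membrane linker list held 5 genes even without LacZ, 3 in both and 6 LacZ without even, beside 32.9%, 13.2% and 53.8% of all genes with a peak. Its close relatives RDX, EZR and MSN, which encode radixin, ezrin and moesin, fell into different sets. RDX had even peaks alone, EZR an identical peak of 376 and 131 reads per bin in the even and LacZ lists, and MSN a LacZ peak of 101. CALD1, the actin-binding caldesmon, had even peaks of 857.5 and 403. On the DNA replication and repair list, 5 of 9 genes with a peak were even without LacZ (RIF1, BRCA1, ATAD2, SMCHD1 and NAA15). Another 3 were in both and MCM2 had a LacZ peak alone, beside the same shares of all genes. NAA15 encodes a subunit of an N-terminal acetyltransferase, so the count depends on how the list was drawn up. The BRCA1 peak, of 247 reads per bin, lies at a place that 3 gene spans cover. CHAF1A, a subunit of a chromatin assembly factor, had 2 even peaks of 1768 and 976 reads per bin that matched LacZ peaks of 282 and 204.

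Long noncoding RNA genes made up 6 of 219 genes even without LacZ (2.74%, 1.01 to 5.87) and 27 of 358 LacZ without even (7.54%, 5.03 to 10.8), and 0 of 88 in both. The intervals of the first 2 overlapped. Protein-coding genes with even and no LacZ peaks had a median span of 44347 bases, and those with LacZ and no even peaks 39883.5, beside 24130 for all protein-coding genes. Spans under 20000 bases were found in 23.5% (18.0 to 29.7) of the first set and 34.7% (29.5 to 40.1) of the second, beside 45.0% of all. On chromosome 19, a gene-dense chromosome, lay 9 of 213 of the first (4.23%, 1.95 to 7.87) and 34 of 326 of the second (10.4%, 7.33 to 14.3), beside 7.24% of all. GPI was among the 9, and NACC1, XAB2, SMARCA4 and PRKCSH were among the 34.

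Outside annotated genes lay 22 even peaks and 79 LacZ peaks, and 1 pair of these overlapped. Of the unmatched ones, 18 of 21 even and 53 of 78 LacZ peaks included a bin with the fixed value. They held 4.53% of the reads in even peaks and 17.9% of those in LacZ peaks. The highest was the LacZ peak at rank 2, with 1604.5 reads per bin at chr14:71138371-71139050, all on bins with the fixed value.

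By reads, the 327 unmatched even peaks in the 219 genes without a LacZ peak held 60.6% of the reads in even peaks, and 51.7% once ANP32B was set aside. Even peaks with a LacZ counterpart held 23.2%, or 28.4% without ANP32B. In the LacZ list, the 492 peaks of the 358 genes without an even peak held 60.4% of the reads and the matched peaks 14.04%.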

How the data were processed

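RNA from pull-downs of RD cells with even, odd or LacZ probes was sequenced, with 1 library each. Extraction was by Qiazol and miRNeasy and library preparation by the kits Ovation RNA v2 and then Ovation Ultralow v2, per the labels' protocols. The submitters' processing notes name the build GRCh38 and the tools STAR 2.5.2b, bcl2fastq 2.0.2, SAMtools, Picard, bedtools and Trimmomatic. The authors' file names point to Piranha as peak caller, with settings, and handling of multiply placed reads, not given in the sources used here. Column 5, the deposited signal, was read from the values as reads per 170-base bin, averaged over joined bins and not scaled to depth. The deposited p-value (column 7) was below 0.01 in all peaks. The deposited score (column 8) has no name and a meaning not given in the sources used here. Every peak is listed on the plus strand.

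Matching, ranks and shares with exact Clopper-Pearson 95% intervals were computed with Python 3.11.15, pandas 2.3.3, NumPy 2.4.6 and SciPy 1.17.1, after the matching was tested on simulated peaks. A peak went to the RefSeq GRCh38.p14 gene span with the most shared bases, then to a protein-coding gene, then to the shorter gene, and several genes were under 40 even and 62 LacZ peaks. Exon placement was not used here. The named genes were ZNF609 and CKAP5, the 12 leading genes even without LacZ, the 8 leading matched genes, the 10 leading genes LacZ without even, genes with 4 or more peaks in a list, and members of 32 gene lists with a peak. UBTF, KANK2, ATP5ME, ENAH, SLC2A11, RILPL1 and TCEAL4 were named after their values were seen. The members and lists were chosen with earlier results of these data known. Alternatives covered the overlap needed, distance, p-value limit, list length, weakest peak, fixed-value peaks, stronger peaks and gene assignment. The total lysate was not analysed here.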

Additional observations from a re-analysis of the deposited data

How the results depend on the processing

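The shares and gene counts kept to within their intervals or within 1.5 times under 50% reciprocal overlap, matching within 200 bases, leaving out peaks with the fixed value, counting all overlapped genes and counting protein-coding genes alone, and also without ANP32B peaks, an alternative chosen after seeing the data. A p-value limit of 0.001 left 86 genes even without LacZ, 25 in both and 150 LacZ without even. Keeping the stronger peaks of each list (251 and 361) left 115, 39 and 191. With LacZ trimmed to 502 peaks, 11.4% of even peaks overlapped one. With both lists limited to peaks of at least 108 reads per bin, 9.96% of even and 13.1% of LacZ peaks overlapped, 56 genes were in both and 185 were LacZ without even. These settings test fewer peaks. Of the 55 genes chosen by rank or peak number, 41 kept their set at the p-value limit. CHAF1A, DDX23, NCL and TNNT2 became even without LacZ there, MYH9 and PTMS became LacZ without even, and COL3A1, COL4A1, FGFRL1, MAP1A, MYBL2, MYOF, RRP12 and SMARCA4 had no peak. At 108 reads per bin COL3A1, COL4A1, RRP12 and TOP1 became even without LacZ and MYO18A had no peak. Without peaks on the fixed value 44 kept their set, and ZNF609, RTL9, MYPN, NOS1AP, ZNF282, SGCZ, PDE4B, PELI1, MYOF, DOCK1 and LOC105373963 had no peak. No paired analysis was possible because each probe set had 1 library. Depth is known only through reads in peaks, and 1 library per probe set leaves the spread between repeats unknown.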
